A study of Mus musculus with 18 samples.

Results

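The genes described here are 10 transcripts through which the transcription factor ATF4 feeds amino acid, serine and one-carbon metabolism: Atf4 itself, Asns, Psat1, Phgdh, Shmt2, Mthfd2, Slc7a11, Slc7a5, Ddit4 and Sesn2. They were picked by gene symbol from 55487 genes in a table of RNA-seq read counts, and all 10 were present and passed the filter on low counts. The RNA came from the frontal cortex of 18 mice, 6 of each of 3 genotypes (3 of each sex), at 9 to 10 months of age. APP/PS1 mice carry transgenes that produce amyloid in the brain. APP/PS1/FTnKO mice, called knockout mice below, carry the same transgenes and lack the β-subunit of farnesyltransferase (FT, gene Fntb) in forebrain neurons, because a Cre recombinase driven by the CamKIIα promoter deletes its floxed alleles. According to the methods of the study, APP/PS1 and WT mice also carry floxed Fntb on both alleles but no Cre, and WT mice lack the transgenes, whereas the deposited record calls the WT mice C57BL/6J, so their background is not settled. The Cre acts in one class of neurons and the tissue holds all cell types, so that fewer cells of a type and less RNA per cell cannot be told apart in any value below.

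ATF4 is translated when the initiation factor eIF2 is phosphorylated by one of the kinases of the integrated stress response, and the kinase complex mTORC1 also raises ATF4 and its targets in growing cells. Its targets import amino acids, build asparagine and serine, and pass the one-carbon unit of serine to folate in mitochondria. Farnesylation anchors Ras and Rheb to membranes, and Rheb activates mTORC1, so the 10 genes are a transcript readout downstream of a pathway that the knockout touches. In the brain, serine is made mainly by astrocytes and passed on to neurons.

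ATF4, paired with a C/EBP protein, is known to bind a composite element with the core TGATGNAA. The core was searched on both strands of RefSeq promoter windows of GRCm38.p6, from 250 bases before to 50 bases after the start site, and 9 of the 10 genes had a window (Slc7a5 had none in the table used). It was found for 2 of the 9, Slc7a11 and Asns, against 4.51% of all 27025 genes with a window (3.97% of 32851 windows). The matches are shown because they are the sequence by which an ATF4 target is commonly recognised, with each match in capitals and the strand of the gene written 5′ to 3′.
Slc7a11, chr3:50443628-50443704, minus strand: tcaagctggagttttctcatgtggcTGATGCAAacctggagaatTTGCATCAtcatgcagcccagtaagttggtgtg
Asns, chr6:7693215-7693242, minus strand: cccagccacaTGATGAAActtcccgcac
The Slc7a11 stretch holds 2 matches in opposite orientation that begin at -66 and -47 from the start site, an arrangement with 2 or more matches that 0.0700% of all windows share. The Asns match begins at -23 from the RefSeq start site and lies inside the first exon of the longer GENCODE M21 model. The windows of Atf4, Psat1, Phgdh, Shmt2, Mthfd2, Ddit4 and Sesn2 held no match, which says only that these letters are not in this window. Of other known ATF4 and CHOP targets, 10 of 20 genes with a window had a match. A match was found for 0 of 18 further serine, glycine and one-carbon enzymes, 1 of 11 amino acid carriers and 5 of 13 cytosolic aminoacyl-tRNA synthetases.

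Total counts per mouse were 15925432 to 21030935, and RNA integrity numbers (RIN) were 7.6 to 8.8. Fntb was 11.8 ± 2.78 CPM (counts scaled to the size of the library; SD, n = 6) in knockout mice, 20.2 ± 8.07 (n = 6) in APP/PS1 mice and 22.2 ± 8.68 (n = 5) in WT mice, with overlapping ranges. App, which counts reads of the transgene too, was at 2134 CPM or more in the mice with the transgenes and 1623 or less in the WT mice apart from 19622. WT mouse 19622 went against its tissue label. The 6 cerebellar markers (Gabra6, Cbln3, Pcp2, Fat2, Car8 and Barhl1) summed to 2787 CPM in this library and to 5.33 to 15.2 CPM in the other 17, and 9 of 10 markers of cortical excitatory neurons lay below every other mouse, with Camk2a at 132 CPM against at least 2305 and Fezf2 at 0. Values are therefore given first for 17 mice without 19622, and that library is described on its own further on. CPM values were scaled by TMM, and genotypes were compared over all 17414 tested genes with edgeR's quasi-likelihood test with sex as a further term, in which a gene is called at a Benjamini-Hochberg adjusted p (FDR) under 0.05.

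None of the 10 genes was called in any comparison of genotypes. APP/PS1 was compared with WT for the response to amyloid, APP/PS1/FTnKO with APP/PS1 for the effect of the knockout on that background, and APP/PS1/FTnKO with WT for what remained of the difference. In the same order, 1.5%, 0.327% and 3.87% of all tested genes were called, so that 0 of 10 lies close to the background. DESeq2, which was run on the same mice, called 2.19%, 1.38% and 7.64% of its genes and again none of the 10. At an unadjusted p under 0.05 the 10 genes numbered 0, 1 (Ddit4) and 1 (Mthfd2), against 14%, 11.5% and 22.1% of all genes. The first count moved with single mice: it was 4 (Psat1, Shmt2, Slc7a5 and Ddit4) without APP/PS1 mouse 19619 and 2 without APP/PS1 mouse 19744 or WT mouse 19101. Without the filter on low counts it was 1 (Ddit4). The second was 2 without 19619. Both Ddit4 and Mthfd2 lost their unadjusted p under 0.05 without any of several single mice, which are named beside their values. The lowest p of each of these genes with a single mouse left out is given there as well. The ranges of the genotypes overlapped for all 10 genes in each comparison, while they were apart for 2.4%, 0.97% and 5.6% of all genes. The median log2 fold change of the 10 genes was 0.061 (8 higher) in the first comparison, -0.029 (3 higher) in the second and 0.021 (7 higher) in the third, beside -0.0023, -0.0016 and 0.0053 over all tested genes. The comparisons share mice, so their values are not independent of each other.

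**Figure D1:**
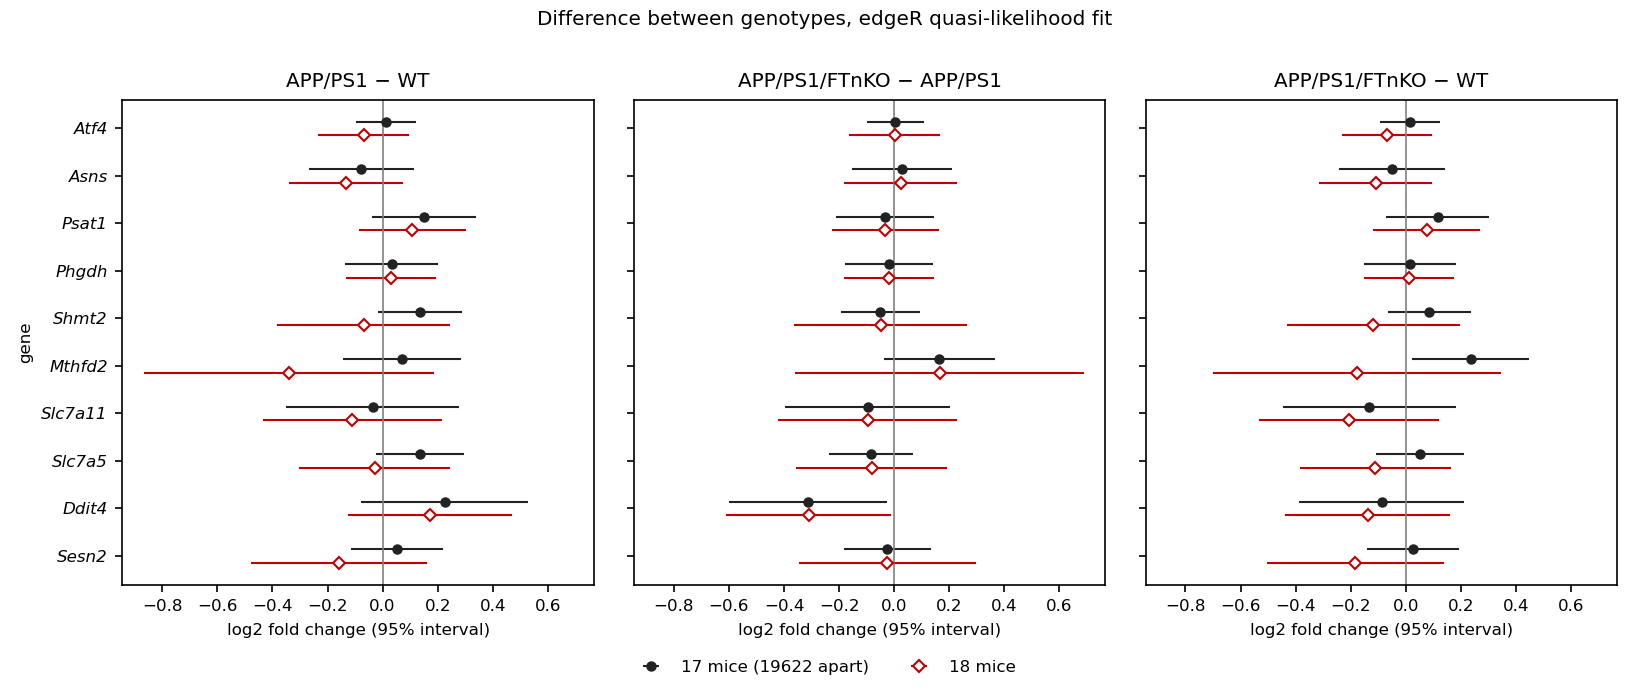
Log2 fold change of each of the 10 genes (x axis) with its 95% confidence interval in the 3 comparisons, fitted without WT mouse 19622 (filled circles, 17 mice) and with it (open diamonds, 18 mice). The intervals include 0 for all genes in the first panel, and for all but Ddit4 in the second and Mthfd2 (17 mice only) in the third.

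Over the 17 mice the factor itself had the lowest coefficient of variation of the 10 (5.11%), although within WT mice Slc7a5 (4.69%) and Sesn2 (5.65%) lay below its 6.96%. Atf4 (ENSMUSG00000042406, chr15:80255184-80257541, plus strand, GRCm38) was at 120, 127, 110, 121 and 133 CPM in the 5 WT mice. In APP/PS1 mice it ranged from 118 to 130 CPM around a median of 122, and in knockout mice from 118 to 133 CPM around a median of 123. The genotypes covered the same levels. Its log2 fold change was 0.012 (95% interval -0.097 to 0.12) for APP/PS1 against WT and 0.0039 (-0.10 to 0.11) with the knockout. The intervals therefore leave room for differences of the Atf4 transcript up to about 0.12 on the log2 scale. ATF4 is controlled chiefly at translation, which counts of RNA do not measure.

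Per kilobase of exon, the 10 genes spread over a wide range of levels. Atf4 was highest at 52.3 ± 2.67 CPM per kb (SD, n = 17), above 95.7% of tested genes with a length. Asns, Psat1 and Phgdh followed at 32.4 ± 3.30, 30.5 ± 3.45 and 27.6 ± 2.44 CPM per kb, and their ranges over the mice overlapped. Ddit4 at 18.8 ± 3.89 and Slc7a5 at 17.7 ± 1.66 CPM per kb also overlapped with each other, and Ddit4 with Phgdh. Shmt2 at 8.60 ± 0.722 and Sesn2 at 4.21 ± 0.322 CPM per kb each stood apart from their neighbours. Slc7a11 at 3.00 ± 0.521 and Mthfd2 at 2.35 ± 0.292 CPM per kb were lowest and overlapped. The coefficient of variation of CPM over the 17 mice ran from 5.11% for Atf4 to 20.6% for Ddit4.

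**Figure D2:**
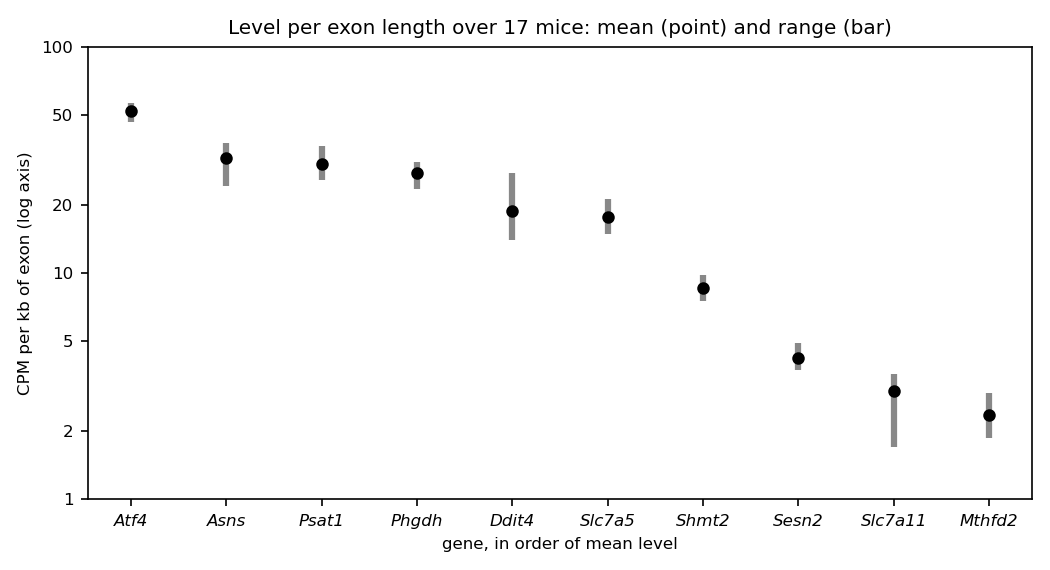
Level of each gene in CPM per kilobase of exon (log axis), as the mean (point) and the range (bar) over 17 mice. Atf4 stands alone at the top with a mean of 52.3, and Mthfd2 is lowest at 2.35.

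None of the enzymes that build serine and asparagine passed the test between genotypes. Phgdh (chr3:98313170-98339990, minus strand), which takes the first and committed step of serine synthesis, was at 74.8, 64.5, 69.7, 60.8 and 68.8 CPM in WT mice. It ranged from 63.2 to 76.7 CPM (median 69.1) in APP/PS1 mice and from 58.3 to 77.4 CPM (median 68.5) in knockout mice. The 3 groups lay on top of each other, and the log2 fold changes were 0.034 against WT and -0.018 with the knockout (95% interval -0.18 to 0.14). Up to 0.738% as many counts as those of Phgdh fell on any of its near-identical pseudogenes.

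Psat1 (chr19:15904678-15947337, minus strand), the transaminase of the second step, was at 125, 114, 137, 112 and 118 CPM in WT mice. In APP/PS1 mice it ran from 110 to 156 CPM with a median of 141, and in knockout mice from 115 to 140 CPM with a median of 134. Of the 6 APP/PS1 mice 4 lay above every WT mouse and 2 below every WT mouse (the nearest at 136.8 against 136.5 CPM). The 2 low mice had RIN values of 8.7 and 8.6, the highest of their genotype. Its log2 fold changes were 0.15 (SE 0.090, FDR = 0.472 in edgeR) against WT and -0.033 (SE 0.085, FDR = 0.924) with the knockout. Between knockout and WT mice it was 0.12 (SE 0.089, FDR = 0.471 in edgeR).

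Asns (chr6:7675169-7693254, minus strand), which makes asparagine from aspartate, was at 86.4, 95.9, 84.1, 100.002 and 89.7 CPM in WT mice. The range was 76.8 to 93.9 CPM (median 89.97) in APP/PS1 mice and 66.3 to 103 CPM (median 89.2) in knockout mice, the widest of the 3 groups at both ends. Its log2 fold changes were -0.077 against WT and 0.027 with the knockout (95% interval -0.15 to 0.21).

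Of the mitochondrial one-carbon enzymes, Mthfd2 had an unadjusted p under 0.05 between knockout and WT mice and did not pass the test after adjustment over all genes. Mthfd2 (chr6:83305691-83325908, minus strand), which oxidises the folate-bound one-carbon unit, was at 7.16, 8.83, 7.62, 7.65 and 6.51 CPM in WT mice. It ran from 6.99 to 8.58 CPM (median 8.12) in APP/PS1 mice and from 7.50 to 10.3 CPM (median 8.75) in knockout mice. 5 of the 6 knockout mice lay above the WT mean and 2 above every WT mouse. Between knockout and WT mice its log2 fold change was 0.24 (SE 0.101, unadjusted p = 0.0314, FDR = 0.181 in edgeR), and an exact two-sided permutation test over mice gave p = 0.0606. The counts behind these values were 119 to 217 per mouse. The unadjusted p was 0.0688 to 0.0965 in edgeR when any of 4 mice was left out (WT mice 18944 and 19721, and knockout mice 18973 and 19394), and 0.0596 in edgeR with RIN as a covariate. Of the fits that left out 1 mouse, the one without knockout mouse 19720 had the lowest unadjusted p. There the log2 fold change was 0.28 (unadjusted p = 0.0138, FDR = 0.145 in edgeR), and the gene was still not called. With mouse 19622 among the WT mice the log2 fold change was -0.18.

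Shmt2 (chr10:127517123-127522444, minus strand) splits serine into glycine and a one-carbon unit. It was at 28.3, 26.4, 23.3, 24.2 and 24.2 CPM in WT mice, 24.97 to 30.2 CPM (median 28.1) in APP/PS1 mice and 24.2 to 30.5 CPM (median 26.9) in knockout mice. 3 of the 6 APP/PS1 mice lay above every WT mouse, but the groups overlapped. For APP/PS1 against WT its log2 fold change was 0.14 (SE 0.072, unadjusted p = 0.0757, FDR = 0.408 in edgeR), the smallest p of the 10 genes in that comparison, and the value was -0.069 with 19622 among the WT mice. The gene shares 32 exon bases with Ndufa4l2 on the opposite strand.

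The carriers did not pass the test either. Slc7a5 (chr8:121881150-121907694, minus strand), which imports large neutral amino acids such as leucine, was at 60.1, 66.0, 59.2, 62.4 and 64.9 CPM in WT mice. It ranged from 55.4 to 79.0 CPM (median 70.0) in APP/PS1 mice and from 61.3 to 71.0 CPM (median 63.6) in knockout mice. 4 APP/PS1 mice lay above every WT mouse and 1 below every WT mouse. Its log2 fold change was 0.14 (SE 0.076, FDR = 0.437 in edgeR) against WT and -0.084 (SE 0.072, FDR = 0.708) with the knockout.

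Slc7a11 (chr3:49892526-50443614, minus strand), the cystine importer that supplies glutathione synthesis, was at 47.9, 35.2, 40.4, 49.8 and 45.8 CPM in WT mice. It ran from 30.3 to 49.0 CPM (median 45.03) in APP/PS1 mice and from 23.6 to 48.2 CPM (median 41.2) in knockout mice, with the knockout mouse at 23.6 the lowest of all. The log2 fold changes were -0.036 and -0.096 (95% interval -0.40 to 0.20 with the knockout), the widest intervals of the list beside Ddit4. Its exons hold a stretch of 373 bases that is 96.0% identical to Tuba1a, an abundant neuronal tubulin, so its counts are uncertain to the extent that reads were shared.

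Ddit4 and Sesn2 are stress-induced inhibitors of mTORC1. Ddit4 (chr10:59949669-59951834, minus strand) was at 29.5, 31.5, 39.7, 26.5 and 30.6 CPM in WT mice. It ran from 27.6 to 48.5 CPM (median 36.2) in APP/PS1 mice and from 24.6 to 39.9 CPM (median 29.0) in knockout mice. Of the 6 knockout mice 5 lay under the APP/PS1 mean, and against WT mice the log2 fold change was -0.088 (95% interval -0.39 to 0.21). For APP/PS1 against WT it was 0.23 (95% interval -0.077 to 0.53, FDR = 0.501 in edgeR). The log2 fold change of APP/PS1/FTnKO against APP/PS1 was -0.31 (95% interval -0.60 to -0.028, unadjusted p = 0.0332, FDR = 0.380 in edgeR), and the exact permutation test over mice gave p = 0.0801. With 19622 in the fit it was -0.31 as well (FDR = 0.742). Of the fits that left out 1 of the 17 mice, the one without knockout mouse 18973 had the lowest unadjusted p. There the log2 fold change was -0.43 (unadjusted p = 0.00179, FDR = 0.151 in edgeR), and the gene was still not called. The unadjusted p was 0.0542 to 0.0950 in edgeR when any of 6 of the 17 mice was left out (knockout mice 18943, 19394, 19720 and 19722, and APP/PS1 mice 19554 and 19723), and 0.0634 in edgeR with RIN as a covariate.

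Sesn2 (chr4:132492032-132510501, minus strand), a leucine-sensing protein, was at 14.6, 14.5, 12.9, 14.7 and 14.9 CPM in WT mice. It ran from 12.99 to 17.003 CPM (median 15.2) in APP/PS1 mice and from 13.2 to 16.2 CPM (median 14.6) in knockout mice. The log2 fold changes were 0.051 against WT and -0.025 with the knockout (95% interval -0.18 to 0.13).

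**Figure D3:**
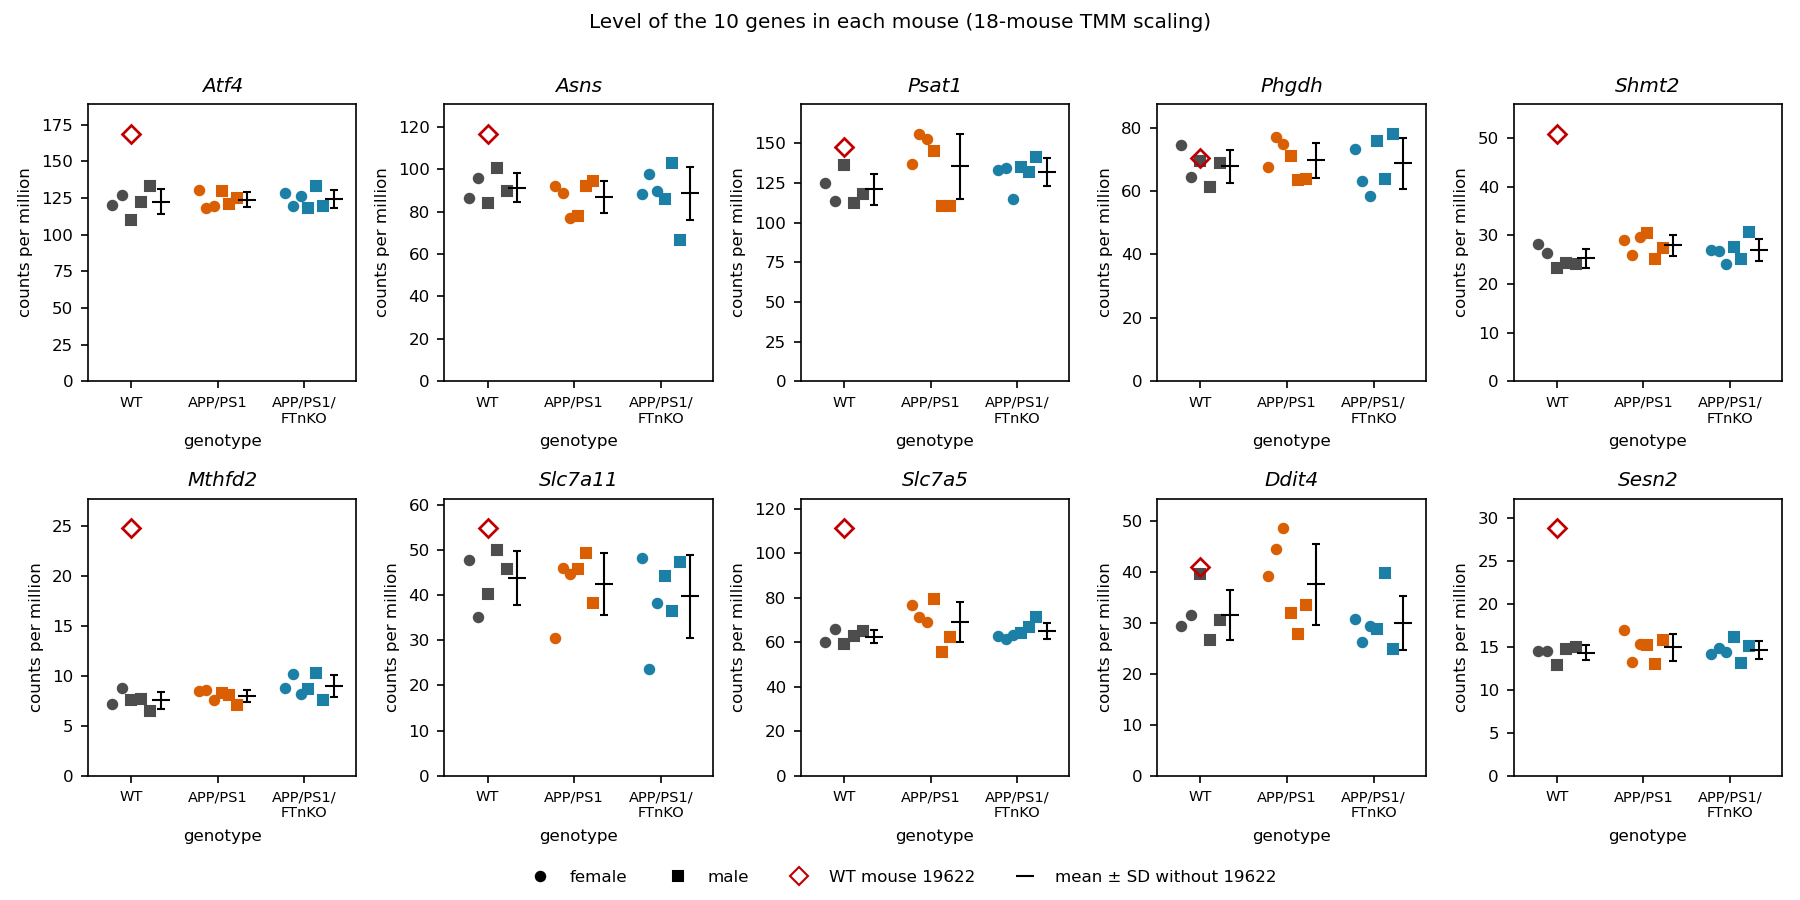
CPM (18-mouse TMM scaling) of each gene in each mouse by genotype, with females as circles, males as squares, WT mouse 19622 as an open diamond and the mean ± SD without it at the right of each group. The genotypes overlap in every panel, whereas 19622 lies above all other mice in 7 of the 10, most clearly for Mthfd2 at 24.8 CPM.

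No gene was called for an interaction of genotype with sex among 17414 tested, with 3 or fewer mice of a sex in each genotype. For Ddit4, APP/PS1 females were at 39.2, 44.3 and 48.5 CPM, and APP/PS1 males at 31.7, 27.6 and 33.3 CPM. Knockout females were at 30.8, 26.2 and 29.4 CPM, and knockout males at 28.7, 39.9 and 24.6 CPM. Every APP/PS1 female lay above every knockout female, while the males overlapped. The log2 fold change of the knockout was -0.61 in females and 0.0063 in males (interaction, unadjusted p = 0.0166, FDR = 0.99999 in edgeR). That of APP/PS1 against WT was 0.53 in females and -0.060 in males (interaction, unadjusted p = 0.0288, FDR = 0.9998 in edgeR). With the knockout Psat1 was at -0.22 in females and 0.16 in males (interaction, unadjusted p = 0.0222, FDR = 0.99999 in edgeR) and Phgdh at -0.17 and 0.13 (interaction, unadjusted p = 0.0469, FDR = 0.99999 in edgeR). At an unadjusted p under 0.05 for the interaction the 10 genes thus numbered 1, 3 and 0 in the 3 comparisons, against 4.05%, 3.32% and 1.79% of all genes. In the APP/PS1 group the females had RIN values of 8.1, 7.9 and 8.3 and the males 7.7, 8.7 and 8.6. The males at 8.7 and 8.6 thus lay above every female. Psat1 was at 110 CPM in both of them and at 145 CPM in the male at 7.7. The part of RNA quality in the differences by sex was not tested. The main effect of sex, a term read after the data had been seen, called 0 of the 10 genes and 12 genes (0.0689%) in all.

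Psat1 moved with RNA quality. The median RIN was 8.2 in APP/PS1, 8.6 in APP/PS1/FTnKO and 8.7 in WT mice, so that quality was not balanced between genotypes. Psat1 was higher in mice of lower RIN, with Pearson's r = -0.66 over 17 mice (permutation p = 0.00410, 0.0410 adjusted over the 10 genes) and Spearman's rho = -0.76 (permutation p = 0.000630, adjusted 0.00630), and r was -0.76 without the 2 mice farthest from the median RIN. Within APP/PS1 mice r was -0.81 (exact permutation p = 0.0778, n = 6) and within knockout mice -0.29 (exact permutation p = 0.350, n = 6), while the 5 WT mice were too few. For Slc7a5 r was -0.58 (permutation p = 0.0155, adjusted 0.0773) and rho -0.49 (adjusted permutation p = 0.123), with -0.91 within APP/PS1 mice (exact permutation p = 0.0167, n = 6) and 0.17 within knockout mice (exact permutation p = 0.967, n = 6), so the relation did not hold in both. For Phgdh r was -0.52 (permutation p = 0.0329, adjusted 0.110) and rho -0.53. As a term of the edgeR model RIN had a slope of -0.28 in the log2 level of Psat1 per unit (FDR = 0.0765) and called 0 of the 10 genes, against 8.4% of all genes. With RIN as a covariate the log2 fold change of Psat1 for APP/PS1 against WT was 0.012 in place of 0.15 (FDR = 0.984 in edgeR), and that of Slc7a5 0.046 in place of 0.14 (FDR = 0.932 in edgeR). That of Psat1 in the knockout comparison was 0.032 and that of Phgdh 0.024, both of opposite sign to the values above and neither called. These relations were examined after the data had been seen, and the part of RNA quality in the genotype values was not tested further.

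**Figure D4:**
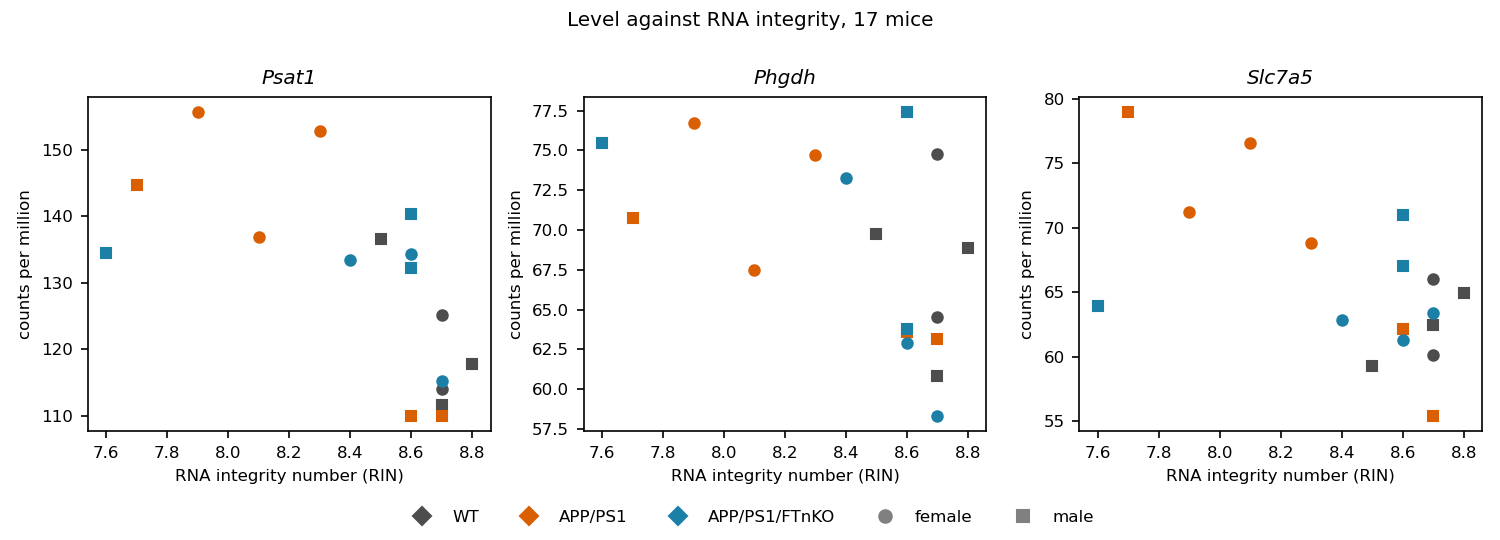
CPM (17-mouse TMM scaling) of Psat1, Phgdh and Slc7a5 against the RNA integrity number in 17 mice, colored by genotype with females as circles and males as squares. The y axes do not start at 0. Psat1 falls from left to right (r = -0.66), and the 4 APP/PS1 mice with the lowest RIN have the highest values of their genotype for all 3 genes.

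Correlations among the 10 genes from mouse to mouse had both signs, and they are given without a background of other gene pairs. After genotype and sex had been removed, 25 of the 45 pairs had a positive r and 20 a negative r, with a median of 0.078. Psat1 and Phgdh, the first steps of serine synthesis, rose and fell together, with r = 0.75 (permutation p = 0.000500, 0.0207 adjusted over the 45 pairs), rho = 0.72 (adjusted permutation p = 0.0301) and r = 0.73 without the 2 mice farthest from the median of Psat1. Asns ran opposite to Phgdh, with r = -0.71 (permutation p = 0.000920, adjusted 0.0207), rho = -0.77 (adjusted permutation p = 0.0207) and r = -0.68 without 2 mice. No other pair passed the adjusted test. Atf4 correlated with its targets between r = -0.33 and r = 0.40. With RIN removed as well, which was tried after the data had been seen, Asns and Phgdh kept r = -0.72 (adjusted permutation p = 0.0495), and Psat1 and Phgdh had r = 0.63 (adjusted permutation p = 0.102).

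**Figure D5:**
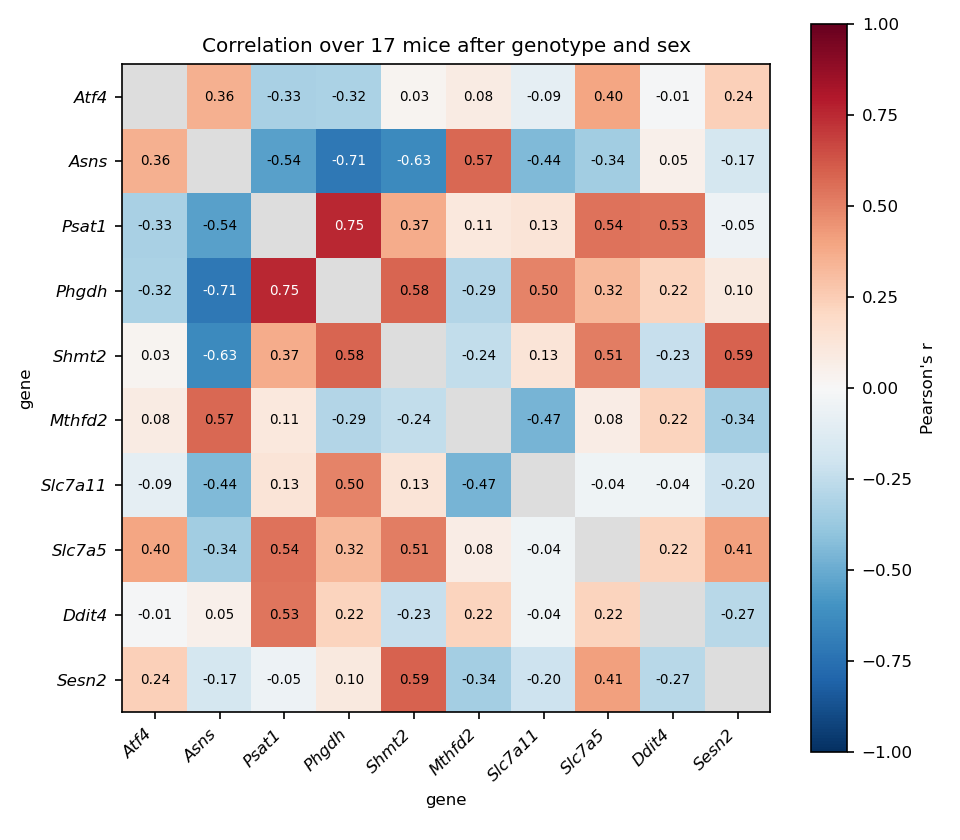
Pearson's r between each pair of the 10 genes over 17 mice, after genotype and sex have been removed from log2 CPM (red positive, blue negative). Psat1 and Phgdh stand out at 0.75 and Asns and Phgdh at -0.71, and the row of Atf4 has no r beyond 0.40.

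Cell type markers moved with the same genes. The mean log2 CPM of 10 astrocyte markers, with genotype and sex removed, correlated with Phgdh at r = 0.85 (rho = 0.82, adjusted permutation p = 0.00330) and with Psat1 at r = 0.77 (rho = 0.75, adjusted permutation p = 0.00480). With Asns the same markers gave r = -0.79 (rho = -0.81, adjusted permutation p = 0.00330). These values were 0.86, 0.73 and -0.75 without the 2 mice farthest from the median of the markers. Asns was also lower where 10 endothelial markers were higher (r = -0.77, rho = -0.87, adjusted permutation p = 0.00480), and Slc7a11 was higher there (r = 0.76, rho = 0.65, adjusted permutation p = 0.00480), although r fell to 0.55 without 2 mice for Slc7a11. Among 60 such relations of 10 genes with 6 marker lists, all examined after the data had been seen, r passed at an adjusted p under 0.05 in 14 and rho in 13. Phgdh also passed by r with endothelial (r = 0.71), microglial (0.61) and excitatory neuron markers (-0.66). Psat1 also passed with oligodendrocyte (0.67) and excitatory neuron markers (-0.61), and Asns with microglial markers (-0.72). Shmt2 passed with astrocyte markers (0.65), and Mthfd2 (0.66) and Slc7a11 (-0.66) with interneuron markers. The summed astrocyte markers themselves were 4435 to 5369 CPM in WT mice, 4352 to 5463 in APP/PS1 mice and 4316 to 5540 in knockout mice, and 0 of the 10 were called between genotypes by edgeR. All 10 were higher in the APP/PS1 group than in WT mice (median log2 fold change 0.13, 1 with an unadjusted p under 0.05, against 14% of all genes), and 7 of 10 were with 19622 among the WT mice (median 0.061). DESeq2 called 1 of them, Aqp4, the water channel of astrocyte endfeet, for APP/PS1 against WT (log2 fold change 0.46 in edgeR, FDR = 0.0536 in edgeR and 0.00709 in DESeq2). Microglial markers, of which 6 of 10 were called higher with the transgenes (APP/PS1 against WT), summed to 419 to 485 CPM in WT mice, 600 to 1074 in APP/PS1 mice and 459 to 794 in knockout mice. With the knockout 0 of these 10 were higher and 0 were called (median log2 fold change -0.28, 5 with an unadjusted p under 0.05, against 11.5% of all genes), and against WT 4 were called higher in knockout mice by edgeR and 5 by DESeq2. The 10 markers of excitatory neurons summed to 5454 to 7363 CPM in WT mice (median 5789), 4936 to 7075 in APP/PS1 mice (median 6005) and 4135 to 5938 in knockout mice (median 4572). In APP/PS1 against WT mice 1 of the 10 was higher (median log2 fold change -0.11), in 17 mice. With the knockout against APP/PS1 4 of the 10 were higher (median -0.045, 2 with an unadjusted p under 0.05). Neither comparison had any of them called by edgeR or DESeq2. Against WT all 10 were lower in knockout mice in the fit of 17 mice (median log2 fold change -0.24), and 5 had an unadjusted p under 0.05, against 22.1% of all genes. Of these markers edgeR called Slc17a7 (log2 fold change -0.46, FDR = 0.0396), and DESeq2 called Slc17a7 and Camk2a. With 19622, where they summed to 681 CPM, 6 of the 10 were higher (median 0.045), none was called by edgeR (1 had an unadjusted p under 0.05), and Slc17a7 was at -0.26 (FDR = 0.557). The part of these cell types in the genotype values of the 10 genes was not tested.

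Over all tested genes, the patterns most like Psat1 across the 17 mice were those of Hepacam and Gpr146 (Pearson's r = 0.91 for both), and those most like Phgdh were Gpc5 (0.88) and Epas1 (0.86). Asns was most like Map7d2 and Cdc5l (0.90 for both). Ddit4 was most like Nfkbia (0.86) and Sgk1 (0.82), and Slc7a11 most like Cnn2 (0.91) and Fam180a (0.88). Atf4 had a lower best match, Fbxo4 at 0.83, and Sesn2 the lowest, Dusp15 at 0.76 and Supv3l1 at 0.75. Slc7a5 was most like Zfp276 (0.86), while the best matches of Shmt2 and Mthfd2, Gm19817 (0.87) and Wfdc18 (0.88), had mean levels under 1 CPM. These are the highest of the values over 17413 other genes and are given as a description.

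In the library of WT mouse 19622, 7 of the 10 genes were higher than in all 17 other mice and none was lower. Mthfd2 was at 24.8 CPM against 7.55 ± 0.849 (SD, n = 5) in the other WT mice, which is 3.28 times their mean. Shmt2 was at 50.9 CPM (2.02 times), Sesn2 at 28.9 CPM (2.01 times), Slc7a5 at 111 CPM (1.78 times), Atf4 at 169 CPM (1.38 times), Asns at 117 CPM (1.28 times) and Slc7a11 at 54.8 CPM (1.25 times). Psat1 at 147 CPM, Phgdh at 70.4 CPM and Ddit4 at 41.0 CPM lay within the other mice. Over all genes tested in 18 mice 28.6% were above and 26.8% below all the others in this library, so a value outside the other mice was common. The same library had 2787 CPM of cerebellar markers, 10919 CPM of oligodendrocyte markers against 3464 to 7718 in the others, 277 CPM of microglial markers against 419 or more, and a RIN of 8.6. With it among the WT mice the medians of the 10 log2 fold changes were -0.069 for APP/PS1 against WT and -0.11 for APP/PS1/FTnKO against WT, and Atf4, Shmt2, Mthfd2, Slc7a5 and Sesn2 changed sign in both. None of the 10 was called in 18 mice either, where 1.2%, 0.0116% and 1.51% of all genes were called in the order of comparisons above.

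Of 8 genes for the kinases, phosphatase subunits and initiation factor subunits of the integrated stress response, 0 were called in any comparison in 17 mice by edgeR or DESeq2, and 1, 0 and 1 had an unadjusted p under 0.05, against 14%, 11.5% and 22.1% of all genes. The smallest p values were those of Eif2ak2, the double-stranded RNA kinase, for APP/PS1 against WT (log2 fold change 0.38, FDR = 0.214 in edgeR), of Eif2ak1 with the knockout (0.11, FDR = 0.486) and of Ppp1r15b for APP/PS1/FTnKO against WT (-0.17, FDR = 0.106). Of 21 tested further targets of ATF4 and CHOP 0 were called by edgeR, with median log2 fold changes of 0.049, -0.083 and 0.060 in the 3 comparisons. At an unadjusted p under 0.05 they numbered 3, 0 and 5 of 21, beside the same shares of all genes. Gpt2 had the smallest p for APP/PS1 against WT (0.19, FDR = 0.220 in edgeR), and Aldh18a1, which begins proline synthesis, in both knockout comparisons (-0.12, FDR = 0.470, and -0.22, FDR = 0.0669 in edgeR). DESeq2 called 1 of the 21, Aldh18a1 lower in knockout than in WT mice (FDR = 0.0340).

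Among 22 further serine, glycine and one-carbon enzymes, 1 was called in APP/PS1 against WT mice, where 1.5% of all tested genes were called. Aldh1l2, the mitochondrial 10-formyltetrahydrofolate dehydrogenase, was called higher in APP/PS1 mice. It was at 9.44 ± 1.73 CPM (SD, n = 6) in APP/PS1 mice, 8.32 ± 1.05 (n = 6) in knockout mice and 6.46 ± 0.890 (n = 5) in WT mice, with overlapping ranges. The log2 fold change against WT was 0.53 (SE 0.130, FDR = 0.04998 in edgeR and 0.00760 in DESeq2), just inside the threshold of edgeR. Mouse 19622 was at 31.5 CPM, above all others, and with it the value was -0.094 (FDR = 0.927 in edgeR). No enzyme of this list was called with the knockout, where Mthfd1l had the smallest p (-0.41, FDR = 0.312 in edgeR).

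Among 15 tested amino acid carriers, 1 was called in knockout against WT mice, where 3.87% of all tested genes were called. Slc1a4, which carries serine, alanine and other neutral amino acids, was called higher in knockout mice. It was at 86.2 ± 9.09 CPM (SD, n = 6) in APP/PS1 mice, 85.0 ± 5.04 (n = 6) in knockout mice and 71.4 ± 3.64 (n = 5) in WT mice. Every knockout mouse lay above every WT mouse (ranges apart for 5.6% of all genes). Against WT the log2 fold change was 0.24 in APP/PS1/FTnKO (SE 0.066, FDR = 0.0462 in edgeR) and 0.26 in APP/PS1 mice (SE 0.066, FDR = 0.0528). With 19622, which had 58.1 CPM, these were 0.30 (FDR = 0.0528 in edgeR) and 0.32 (FDR = 0.0441), so each passed in one of the fits and missed the threshold narrowly in the other. In DESeq2 on 17 mice both passed (FDR = 0.0131 and 0.0105). No other carrier was called, and Slc7a10 had the smallest p with the knockout (0.27, FDR = 0.423 in edgeR).

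Among 20 cytosolic aminoacyl-tRNA synthetases, which charge tRNAs and many of which are ATF4 targets, 1 was called in APP/PS1/FTnKO against WT mice. There 3.87% of all tested genes were called. The called gene was Cars, which was higher. This cysteinyl-tRNA synthetase was at 56.5 ± 3.52 CPM (SD, n = 6) in knockout mice, 49.0 ± 2.53 (n = 6) in APP/PS1 mice and 47.8 ± 2.78 (n = 5) in WT mice. Every knockout mouse lay above every WT mouse (ranges apart for 5.6% of all genes). The log2 fold change was 0.24 against WT (SE 0.056, FDR = 0.0236 in edgeR, 0.155 in 18 mice) and 0.21 against APP/PS1 (SE 0.053, FDR = 0.107), of which the second passed in DESeq2 (FDR = 0.0323). Qars had the smallest p for APP/PS1 against WT (0.096, FDR = 0.394 in edgeR), and 0 synthetases were called there.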

How the data were processed

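Frontal cortical RNA of 18 mice was sequenced as stranded mRNA libraries. Trimmomatic 0.33, HISAT2 2.1.0 (GRCm38) and featureCounts were the authors' tools for trimming, alignment and counting, and raw, unscaled counts per gene were deposited. How featureCounts treated strand and multi-mapping reads, and its version and annotation, were not found in these sources. Lengths and positions came from GENCODE M21 (99.4% of genes matched).

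The main test was the quasi-likelihood F test of edgeR 4.0.16 (R 4.3.3) on TMM-scaled counts, in one fit of sex and the 3 genotypes, for genes that passed filterByExpr at 10 counts. DESeq2 1.42.0 was an alternative. Log2 CPM used a prior count of 2, and correlations 100000 permutations. Single genes were also compared by two-sided exact permutation tests over mice. Each mouse is a separate animal, and 0 columns of values were unused. The low filter left 17414 genes in 17 mice and 17285 in 18. WT mouse 19622 was kept apart by the rule of this work, and its markers are given above. The authors left out a WT outlier, which the paper does not name.

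The 10 genes and the lists were chosen with earlier results of these data known. Named beside them are called genes of the 5 pathway lists, otherwise the smallest p of each list and comparison, the 2 genes most alike in pattern, and Fntb and App as label checks. Genes named beyond that were chosen after their values were seen. Alternatives were all 18 mice, DESeq2 with 17 or 18 mice, RLE scaling, no filter, no sex term, RIN as a covariate with 17 or 18 mice, fits of 2 genotypes alone, and fits that omit 1 mouse at a time.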

Additional observations from a re-analysis of the deposited data

Results flagged for a closer look

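Among 40 groups of 5 or 6 mice (each gene in each genotype, and WT with 19622), 6 held a mouse whose gap to its nearest neighbour took up more of the group's range than Dixon's 95% limit. Chance alone flags about 1 in 20 such groups, and of the 30 groups without 19622 2 were flagged. The groups with 19622 repeat the other WT mice and add a library already set apart, so their flags are not set against chance. 4 of the 6 were the library of WT mouse 19622, at 50.9 CPM for Shmt2, 24.8 CPM for Mthfd2, 111 CPM for Slc7a5 and 28.9 CPM for Sesn2. The other two were Psat1 in APP/PS1/FTnKO mouse 19722, low at 115 CPM, and Sesn2 in WT mouse 19101, low at 12.9 CPM.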

How the results depend on the processing

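None of the 10 genes was called in the values reported or under the 26 alternatives run for each comparison (9 other settings and each of the 17 mice left out), and the smallest FDR of any of them was 0.131 (Mthfd2 for APP/PS1/FTnKO against WT). For Ddit4 with the knockout the log2 fold change stayed between -0.43 and -0.24. No paired analysis was run. The labels give no replicate numbers, so the numbers used here only name the mice. The paper describes littermates of the different genotypes, and which mice shared a litter was not examined. The values below are those of single genes that changed sign, the counts of called genes that moved beyond 1.5 times and the medians that moved beyond the spread between mice, with fold changes on the log2 scale. The edgeR values with all 18 mice differ from those reported by the addition of WT mouse 19622, and for the others the cause was not tested. The median of the 10 genes with the knockout, -0.029 as reported, was -0.0058 with RIN as a covariate, 6.14e-05 with RIN in 18 mice and -0.064 to -0.0087 with each mouse left out. With RIN in 17 mice the medians against WT were 0.021 for APP/PS1 and 0.0031 for APP/PS1/FTnKO, against 0.061 and 0.021 as reported. With DESeq2 on 17 mice, APP/PS1 against WT had 458 genes called, while APP/PS1/FTnKO against APP/PS1 had 244 genes called, and APP/PS1/FTnKO against WT had 1302 genes called. With DESeq2 on all 18 mice, APP/PS1 against WT had 422 genes called, a median of the 10 genes of -0.072, Atf4 at -0.073, Shmt2 at -0.071, Mthfd2 at -0.34, Slc7a5 at -0.032 and Sesn2 at -0.16, while APP/PS1/FTnKO against APP/PS1 had 34 genes called and Atf4 at -0.000296, and APP/PS1/FTnKO against WT had a median of the 10 genes of -0.12, Atf4 at -0.073, Shmt2 at -0.12, Mthfd2 at -0.18, Slc7a5 at -0.11 and Sesn2 at -0.19. Without a filter on low counts, APP/PS1 against WT had 452 genes called, while APP/PS1/FTnKO against APP/PS1 had 104 genes called. With RIN as a covariate, APP/PS1 against WT had 84 genes called and Phgdh at -0.067, while APP/PS1/FTnKO against APP/PS1 had 261 genes called, Atf4 at -0.0045, Psat1 at 0.032 and Phgdh at 0.024, and APP/PS1/FTnKO against WT had 388 genes called and Phgdh at -0.043. With RIN as a covariate in 18 mice, APP/PS1 against WT had 68 genes called, a median of the 10 genes of -0.11, Atf4 at -0.062, Psat1 at -0.027, Phgdh at -0.067, Shmt2 at -0.14, Mthfd2 at -0.42, Slc7a5 at -0.13 and Sesn2 at -0.22, while APP/PS1/FTnKO against APP/PS1 had 7 genes called, Atf4 at -0.0019, Psat1 at 0.034, Phgdh at 0.023 and Sesn2 at 0.0020, and APP/PS1/FTnKO against WT had 123 genes called, a median of the 10 genes of -0.16, Atf4 at -0.064, Phgdh at -0.044, Shmt2 at -0.16, Mthfd2 at -0.22, Slc7a5 at -0.16 and Sesn2 at -0.22. With all 18 mice in edgeR, APP/PS1 against WT had a median of the 10 genes of -0.069, Atf4 at -0.069, Shmt2 at -0.069, Mthfd2 at -0.34, Slc7a5 at -0.029 and Sesn2 at -0.16, while APP/PS1/FTnKO against APP/PS1 had 2 genes called, and APP/PS1/FTnKO against WT had 261 genes called, a median of the 10 genes of -0.11, Atf4 at -0.068, Shmt2 at -0.12, Mthfd2 at -0.18, Slc7a5 at -0.11 and Sesn2 at -0.18. With only the genotypes compared, APP/PS1/FTnKO against APP/PS1 had 5 genes called.

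With each of the 17 mice left out in turn, APP/PS1 against WT gave Atf4 at -0.024 to 0.045, Slc7a11 at -0.093 to 0.039 and 124 to 465 called genes, while APP/PS1/FTnKO against APP/PS1 gave Asns at -0.030 to 0.10, Atf4 at -0.020 to 0.020, Phgdh at -0.060 to 0.030, Psat1 at -0.086 to 0.014, Sesn2 at -0.062 to 0.017, Slc7a11 at -0.19 to 0.013 and 10 to 81 called genes, and APP/PS1/FTnKO against WT gave Asns at -0.11 to 0.029, Atf4 at -0.021 to 0.048, Ddit4 at -0.22 to 0.022, Phgdh at -0.030 to 0.061, Sesn2 at -0.0100 to 0.058 and 206 to 987 called genes.

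With 5 or 6 mice a group, the standard errors of the 10 genes were 0.049 to 0.15 on the log2 scale. The data remain compatible with any difference within the 95% intervals. The 3 genes with fewest counts, Mthfd2, Sesn2 and Shmt2, rest on 119 to 631 counts per mouse.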
